A study of Homo sapiens with 12 samples.

Results

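The 12 RNA-seq libraries of the series form a 2 by 2 design, in which CAOV3 cells received bezafibrate, ovarian cancer ascites, both or neither, and all 12 of 12 libraries were used. The question was whether the changes made by the drug and by the fluid add up, gene by gene, and which genes come nearest to departing from that. CAOV3 is an established human line of high-grade serous ovarian carcinoma, and its genotype is given as WT. Control cells received the solvent DMSO. The ascites group received DMSO and ascites from ovarian cancer at 10% for 16 hours, the bezafibrate group 200 uM of the drug for 16 hours, and the combination group both for 16 hours. The labels name no DMSO for the groups with the drug and no time for the control libraries, so a difference in solvent or time cannot be told apart from the treatments. Each group had 3 replicates. The labels do not say whether these were separate cultures, or whether the fluid came from 1 patient or several, so the p-values measure only the spread between these libraries.

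Bezafibrate is a fibrate, a class of drugs that activates the peroxisome proliferator-activated receptors (PPARs). These nuclear receptors sense fatty acids and switch on genes for fatty acid transport, oxidation and storage. Ascites is the fluid that fills the abdomen in ovarian cancer, and it carries lipoproteins, other proteins and growth factors. Cholesterol taken up from lipoproteins is known to restrain the transcription factor SREBP2 and so the genes of sterol synthesis, while lipids of serum can act through YAP, a coactivator that works with the TEAD transcription factors.

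Additivity was judged on the log2 scale. The interaction is the log2 effect of the drug with ascites minus its log2 effect without, which equals the effect of ascites with the drug minus its effect without. It is 0 when the treatments add, and above 0 when the combination lies above the level that the single treatments predict. Levels are CPM, counts relative to the scaled size of the library. A gene was called at an adjusted p under 0.05 in edgeR's quasi-likelihood test over all 12470 genes tested. Genes that respond to a treatment were chosen by its effect averaged over the presence of the other treatment. In this balanced design that contrast is orthogonal to the interaction if the groups have the same spread. The combination group spread more, so the choice is not fully independent of the interaction. In bulk RNA, fewer cells and less RNA per cell cannot be told apart.

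Total counts ran from 11831093 to 18762759 per library, and between 14206 and 14595 genes had a count. Combination replicate 3 lay at -22.4 on the second principal component (9.88% of the variance), apart from the others. The median SD of log2 CPM within a group, over the 9355 genes whose mean reached 10 CPM, was 0.0712 in the combination group and 0.0507 to 0.0539 in the other groups, and this spread enters every interaction. Of the epithelial markers of this tumour type, 4 keratins, EPCAM and CDH1 were expressed. CDH1 ranged from 15.3 to 57.2 CPM over the libraries. PAX8 stayed at or below 1.27 CPM, and WT1, MUC16 and MSLN were too low to test. The 10 epithelial markers summed to 6153 to 6275 CPM in control, 6306 to 6477 with ascites, 6408 to 6726 with bezafibrate and 6876 to 6974 with both. In every library all 3 platelet markers and 5 of 9 blood cell markers were at 0, and the blood list summed to 0.555 to 2.11 CPM over all libraries. The 5 fibroblast markers summed to 192 to 197 CPM in control, 186 to 193 with ascites, 167 to 177 with bezafibrate and 159 to 177 with both, nearly all from LUM (153 to 185 CPM). The 4 mesothelial markers summed to 2.32 to 2.62, 1.85 to 2.5, 2.68 to 2.89 and 3.23 to 4.25 CPM in the same order. The part of these markers in the results was not tested.

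No gene was called in the interaction. The edgeR test passed 0 of 12470 genes (0%), and the lowest adjusted p was 0.98. An unadjusted p under 0.05 was found for 445 genes (3.57%), of which 259 (2.08%) had a positive interaction and 186 (1.49%) a negative one, and for 5 genes it was under 0.001. DESeq2 called 1 gene and gave 183 at an unadjusted p under 0.05, while limma-voom called 0 and gave 443. By comparison, 3525 genes (28.3%) were called for bezafibrate averaged over ascites, 1876 higher (15%) and 1649 lower (13.2%), so that 53.2% of the calls were higher, and 43.3% with upper-quartile scaling. For ascites averaged over the drug, 35 genes (0.281%) were called, 6 higher (0.0481%) and 29 lower (0.233%). That count was 21 without ascites replicate 1 and 118 without combination replicate 3. A missed threshold does not show that the treatments add, so the 95% interval of each interaction was read as well. It lay inside a 1.5-fold departure, 0.58 on the log2 scale, for 10070 genes (80.8%), and inside 2-fold for 11228 (90%).

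How small a departure could be seen depended on the level of the gene. The 2411 genes with a mean of 100 CPM or more had a median half-width of 0.11 for the interval, all of them lay inside 1.5-fold, and the largest interaction among them was 0.3 in size. For the 6944 genes from 10 to 100 CPM the median half-width was 0.19, and 98.7% lay inside 1.5-fold. From 1 to 10 CPM the half-width was 0.52 and 31.4% lay inside. Below 1 CPM it was 1.25 and 0 of 544 genes lay inside, so a 2-fold departure of such a gene was not detectable in these libraries.

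Among the 3525 genes called for the drug, 3130 (88.8%) had an interval inside 1.5-fold, beside 80.8% of all genes tested. An unadjusted interaction p under 0.05 was found for 130 of the 3525 (3.69%), a share close to that of all genes tested. The drug response was the larger one with ascites in 80 of these 130 genes and the larger one without it in 50. Bezafibrate was called in both media, in contrasts that share no library, for 1576 of the 3525 genes. Of these, 0 were called in opposite directions, which the choice by the averaged effect largely fixes. Over all genes tested, 1577 were called in both media, and 1 of these, ZNF3, in opposite directions. Bezafibrate against control was called for 2199 genes (17.6%), 1257 higher (10.1%) and 942 lower (7.55%), and the combination against ascites for 2214 (17.8%), 1305 higher (10.5%) and 909 lower (7.29%). The direction was the same in both media for 3523 genes, which the choice by the averaged effect largely fixes, and the exceptions were RAB43 and SKIDA1. Over the called genes the slope of the interaction on the averaged drug effect was 0.043 in the edgeR fit. From log2 CPM with 1 combination library at a time it was 0.048, 0.017 and 0.03, with a mean of 0.032. With 1 library left out the edgeR slope ran from 0.003 (without control replicate 1) to 0.083 (without combination replicate 1). Over the 35 genes called for ascites, the slope on the averaged ascites effect was 0.032 in the edgeR fit. From log2 CPM with 1 combination library at a time it was -0.039, 0.139 and 0.034. With 1 library left out the edgeR slope ran from -0.594 (without ascites replicate 1) to 1.302 (without combination replicate 1), so no direction is read from it.

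**Figure D1:**
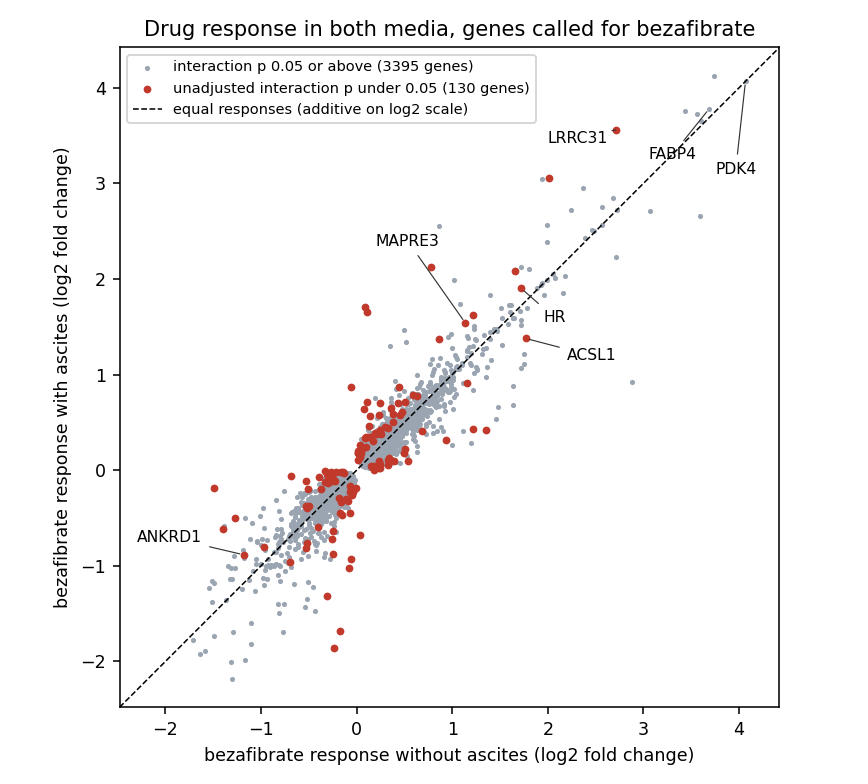
Log2 fold change by bezafibrate without ascites (x axis) and with ascites (y axis) for the 3525 genes called for the averaged drug effect. Each point is 1 gene, red points are the 130 with an unadjusted interaction p under 0.05, and the dashed line marks equal responses, which most points follow.

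Most of the genes with the largest rises under the drug are known PPAR targets, and the intervals of their interactions included 0. PDK4, a kinase that restrains the oxidation of pyruvate, measured 8.52, 7.86 and 8.41 CPM in control and 8.05, 7.34 and 8.69 CPM with ascites. With bezafibrate it measured 137, 140 and 139.7 CPM, and with both 128, 132 and 147 CPM. All 6 libraries with the drug lay far above the 6 without, and the combination libraries lay on both sides of the drug alone. The log2 drug effect on PDK4 was 4.07 without ascites and 4.07 with it, and the interaction was 0.00 (SE 0.123, 95% interval -0.25 to 0.25).

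FABP4, a fatty acid carrier, was at 62.7, 62.1 and 60 CPM in control, 64.3, 63.5 and 65.2 with ascites, 816, 797 and 772 with bezafibrate, and 867, 849.7 and 938 with both. Every combination library lay above every library with the drug alone. Ascites changed FABP4 by 0.06 without the drug (adjusted p 0.923) and by 0.15 with it (adjusted p 0.0152), but the difference between these was 0.09 (SE 0.0562, unadjusted p 0.107). PLIN2, which coats lipid droplets, was at 130.4, 133 and 128 CPM in control, 126, 127 and 123 with ascites, 876, 866 and 853 with bezafibrate, and 839, 812 and 819 with both. The combination libraries all lay below the drug alone, as the ascites libraries lay below control. The interaction of PLIN2 was -0.01, with an interval from -0.10 to 0.08.

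ANGPTL4, which encodes an inhibitor of lipoprotein lipase, had an interaction of 0.05 (SE 0.0814, unadjusted p 0.543). CPT1A, which admits fatty acids to the mitochondrion, had one of 0.00 (SE 0.0739, unadjusted p 0.984). Of 35 PPAR target genes listed, 29 were tested. Bezafibrate raised 26 of the 29 in the averaged effect, beside 15% of all genes tested, with a median of 0.62 beside 0 over all genes tested. In the interaction 0 of the 29 were called, and the median was 0.011 beside 0.001 over all genes tested. An interval inside 1.5-fold was found for 24 of the 29, beside 80.8% of all genes tested. The members with an unadjusted p under 0.05, beside 3.57% of all genes tested, were ACSL1 and FABP1, in opposite directions.

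ACSL1, which activates long-chain fatty acids, measured 6.14, 6.69 and 7.69 CPM in control, 6.62, 6.64 and 7.47 with ascites, 23.5, 23.1 and 23 with bezafibrate, and 19.8, 16.9 and 16.9 with both. Control and ascites overlapped, while all 3 combination libraries lay below the drug alone. The interaction of ACSL1 was -0.39 (SE 0.151, unadjusted p 0.0141). FABP1, the fatty acid carrier of liver and gut, measured 4.91, 4.33 and 4.44 CPM in control, 3.63, 3.51 and 3.84 with ascites, 10.1, 9.58 and 12.4 with bezafibrate, and 12.3, 10.7 and 10.6 with both. Here the ascites libraries lay below control, and the drug and combination groups overlapped. The interaction of FABP1 was 0.41 (SE 0.199, unadjusted p 0.0469).

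The treatments met on 23 genes that were called for both averaged effects. In 16 of them the drug raised the gene and ascites lowered it, in 3 the drug lowered it and ascites raised it, in 2 both lowered it and in 2 both raised it. Against control, ascites alone was called for 11 genes (0.0882%), all lower. Against the drug alone, the combination was called for 16 genes (0.128%), 5 higher (0.0401%) and 11 lower (0.0882%). For each of the 23 the interval of the interaction lay inside 1.5-fold, beside 80.8% of all genes tested. Their means ran from 17.5 (NDRG1) to 1428 CPM (SCD). At such levels 98.7% (10 to 100 CPM) and 100% (100 CPM or more) of all genes lay inside, so the count does not set the 23 apart. Of the 23, 4 (17.4%) had an unadjusted interaction p under 0.05, beside 3.57% of all genes tested. All 4 had a positive interaction: ANKRD1, CCN1, CCN2 and HR. These were also the ones among the 35 genes called for ascites (11.4%). Because the combination group spread more, the choice of these genes is not fully independent of the interaction.

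**Figure D2:**
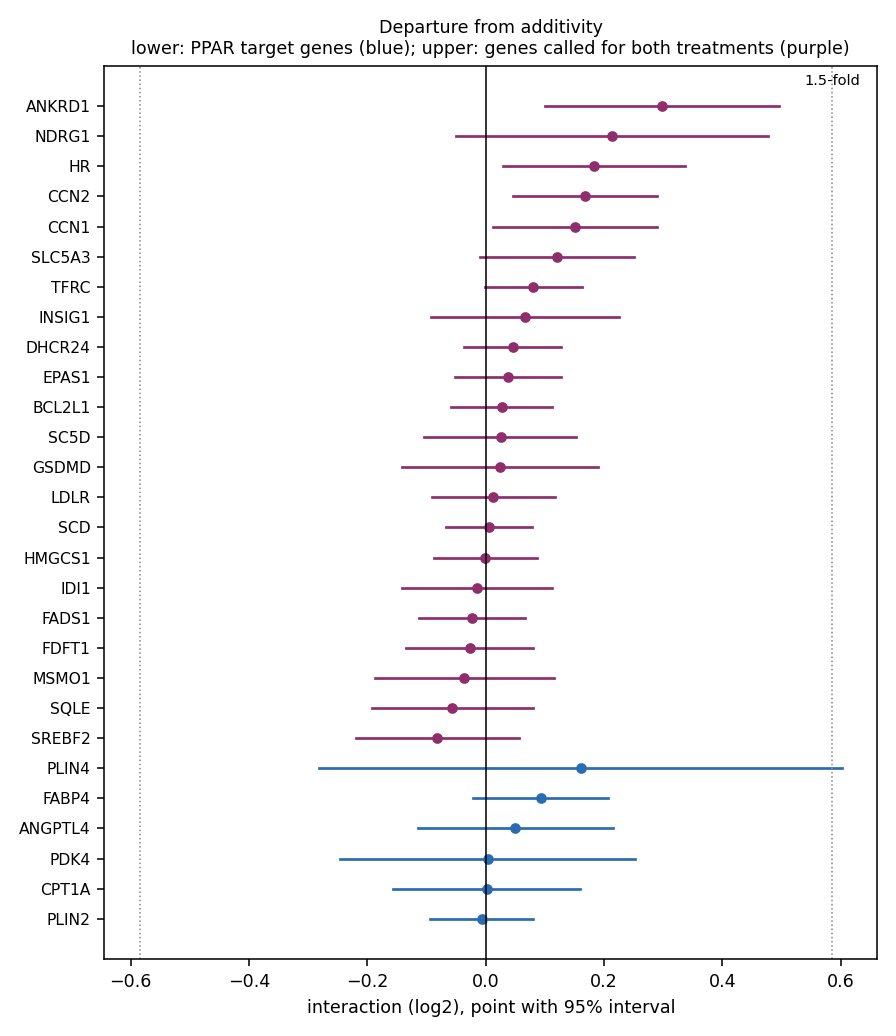
Interaction on the log2 scale (x axis) with its 95% interval for genes called for both treatments (purple) and the PPAR targets PDK4, FABP4, PLIN2, PLIN4, ANGPTL4 and CPT1A (blue). The dotted lines mark a 1.5-fold departure and the solid line 0, the value of additivity; the intervals of ANKRD1, HR, CCN2 and CCN1 lie above 0, and all other intervals drawn include it.

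Genes of lipid synthesis under SREBP2 and its relative SREBP1 formed most of the 16 genes that moved in opposite directions. SCD, the desaturase that makes monounsaturated fatty acids, measured 1372, 1387 and 1372 CPM in control and 1181, 1165 and 1192 CPM with ascites. With bezafibrate it measured 1736, 1669 and 1682 CPM, and with both 1439, 1434 and 1502 CPM. The 4 groups did not overlap, and the combination fell between control and the drug alone. Adding on the log2 scale predicts 1452 CPM for SCD, and the combination measured 1458 ± 37.7 CPM (SD, n = 3), an interaction of 0.01 with an interval from -0.07 to 0.08.

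INSIG1, which holds the SREBP escort protein in the endoplasmic reticulum, was at 45.6, 44.2 and 41.2 CPM in control, 32.8, 33.6 and 33.3 with ascites, 60.6, 57.5 and 59.4 with bezafibrate, and 47.9, 45.3 and 47.4 with both. The combination overlapped control. The drug raised INSIG1 by 0.43 without ascites and by 0.50 with it, and the interaction was 0.07 (SE 0.0782, unadjusted p 0.397).

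HMGCS1, the cytosolic enzyme at the head of the mevalonate pathway, was lowered by both treatments. It measured 369, 385 and 375 CPM in control, 341, 342 and 344 with ascites, 341, 342 and 330 with bezafibrate, and 298, 315 and 309 with both. The single treatments overlapped each other below control, and the combination lay below both. The drug changed HMGCS1 by -0.16 without ascites and -0.16 with it, and ascites by -0.14 without the drug and -0.14 with it, which left an interaction of 0.00 (SE 0.0429, interval -0.09 to 0.09).

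All 25 sterol synthesis genes listed were tested. In the averaged effects bezafibrate raised 15 and lowered 1 of them, beside 15% and 13.2% of all genes tested, and ascites lowered 14, beside 0.233%. Their median interaction was -0.024, 0 were called, and 24 had an interval inside 1.5-fold, beside 80.8% of all genes tested. All members but HSD17B7 had a mean above 10 CPM, where at least 98.7% of all genes lay inside. ACAT2, a thiolase at the entry to the pathway, was the member with an unadjusted p under 0.05, beside 3.57% of all genes tested. ACAT2 was at 50.9, 53.8 and 49.2 CPM in control, 43.8, 43.1 and 45.4 with ascites, 49.7, 41.9 and 46.9 with bezafibrate, and 44.4, 46.4 and 49 with both. Its ascites libraries lay below control, and its drug and combination groups overlapped (interaction 0.23, SE 0.0851, unadjusted p 0.0105). Of 14 fatty acid synthesis genes listed, 13 were tested. Ascites lowered 5, beside 0.233% of all genes tested, bezafibrate raised 5 and lowered 2, beside 15% and 13.2%, and 0 had an unadjusted interaction p under 0.05. The lowest p among them was that of ACSS2, which makes acetyl-CoA from acetate (interaction -0.29, SE 0.145, unadjusted p 0.0548), followed by the fatty acid synthase gene FASN (interaction -0.10, SE 0.0538, unadjusted p 0.0693).

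SREBF2, the gene of SREBP2 itself, was called for both treatments. It measured 113, 104 and 108 CPM in control, 100.4, 100.3 and 98.3 with ascites, 114, 118 and 132 with bezafibrate, and 111, 102 and 101 with both. The combination overlapped control and lay below each library with the drug alone. The interaction of SREBF2 was -0.08 (SE 0.0679, unadjusted p 0.236).

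TFRC, the transferrin receptor that brings iron into the cell (chr3:196049284-196082090 in GRCh38.p14), had a large response to ascites and a small one to the drug. It measured 712, 710.1 and 709 CPM in control, 477, 477 and 484 with ascites, 745, 741 and 741 with bezafibrate, and 509.5, 522 and 557 with both. The 4 groups did not overlap. The drug effect on TFRC was 0.06 without ascites (adjusted p 0.132) and 0.14 with it (adjusted p 0.000297), but the difference itself was 0.08 (SE 0.0407, unadjusted p 0.0568). Combination replicate 3 was the highest of its group, and without it the interaction of TFRC was 0.04 (unadjusted p 0.242). Of 11 iron genes tested, 0 were called by edgeR and 0 had an unadjusted interaction p under 0.05.

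Among genes that responded to both treatments, those with the drug lower and ascites higher were ANKRD1, CCN2 and CCN1, all known targets of YAP and TEAD. In all 3 the combination lay above the level that adding predicts. ANKRD1 encodes an ankyrin repeat protein (chr10:90912096-90921087), and CCN2 (chr6:131948176-131951372) and CCN1 (chr1:85580761-85583950) encode secreted proteins of the extracellular matrix. The 250 bases before the starts of ANKRD1 and CCN2 are printed because both hold the TEAD core GGAATG more than once; the promoter of CCN1 was not searched. They are given 5′ to 3′ on the strand of the gene, which is the minus strand for both (RefSeq, GRCh38.p14, chr10:90921088-90921337 and chr6:131951373-131951622), with each core in capitals.

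ANKRD1: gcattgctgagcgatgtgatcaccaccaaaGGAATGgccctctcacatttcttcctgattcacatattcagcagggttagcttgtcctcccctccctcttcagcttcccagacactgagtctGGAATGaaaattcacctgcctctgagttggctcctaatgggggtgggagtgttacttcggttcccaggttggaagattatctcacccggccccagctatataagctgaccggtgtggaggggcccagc

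CCN2: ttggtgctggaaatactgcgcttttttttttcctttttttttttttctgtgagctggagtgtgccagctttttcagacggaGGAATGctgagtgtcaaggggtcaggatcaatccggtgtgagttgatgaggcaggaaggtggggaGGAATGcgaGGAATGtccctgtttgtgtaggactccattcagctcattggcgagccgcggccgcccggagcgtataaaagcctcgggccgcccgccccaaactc

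The cores start at -220 and -128 in ANKRD1, and at -169, -104 and -95 in CCN2. Searched on both strands (GGAATG or CATTCC), the core occurs in 4175 of 35116 promoters of this length (11.9%). A match describes the letters only and is not a measured binding site.

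ANKRD1 measured 139, 147 and 140.1 CPM in control and 150.4, 154 and 153 CPM with ascites. With bezafibrate it measured 58.7, 64.9 and 64.3 CPM, and with both 71, 90.5 and 88.3 CPM. Every ascites library lay above every control library, and every combination library above every library with the drug alone. Adding predicts 67.1 CPM for ANKRD1, and the combination measured 83.3 ± 10.7 CPM (SD, n = 3). The drug changed it by -1.18 without ascites and by -0.88 with it (log2). Ascites changed ANKRD1 by 0.10 without the drug (adjusted p 0.896) and by 0.40 with the drug (adjusted p 0.0314). The interaction was 0.30 (SE 0.0937, 95% interval 0.10 to 0.50, unadjusted p 0.00569, adjusted p 0.999). It ranged from 0.23 to 0.41 when 1 library was left out. The highest value came without combination replicate 1, the lowest library of its group, and in that edgeR fit ANKRD1 was called (adjusted p 0.000348). It was also called with all 12 libraries in the edgeR fit without a filter on low counts (adjusted p 0.00254).

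CCN2 measured 129.6, 139.9 and 138 CPM in control, 147, 140.4 and 139 with ascites, 67.8, 70.3 and 70.4 with bezafibrate, and 82.7, 83.3 and 78.5 with both. Control and ascites overlapped, but the combination libraries all lay above the drug alone. Ascites changed CCN2 by 0.06 without the drug (adjusted p 0.896) and by 0.23 with it (adjusted p 0.0139), and the difference between these was 0.17 (SE 0.0603, unadjusted p 0.00841, adjusted p 0.999). CCN1 measured 99.1, 101 and 95.9 CPM in control, 101, 113 and 104 with ascites, 66.3, 69.1 and 69.3 with bezafibrate, and 77.1, 87.7 and 80.8 with both. The ascites range of CCN1 began where the control range ended, and the combination lay above the drug alone. Ascites changed CCN1 by 0.11 without the drug (adjusted p 0.802) and by 0.26 with it (adjusted p 0.0125), a difference of 0.15 (SE 0.068, unadjusted p 0.0331). The unadjusted p stayed under 0.05 in 12 of 12 fits that left out 1 library for CCN2, and in 6 of 12 for CCN1.

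**Figure D3:**
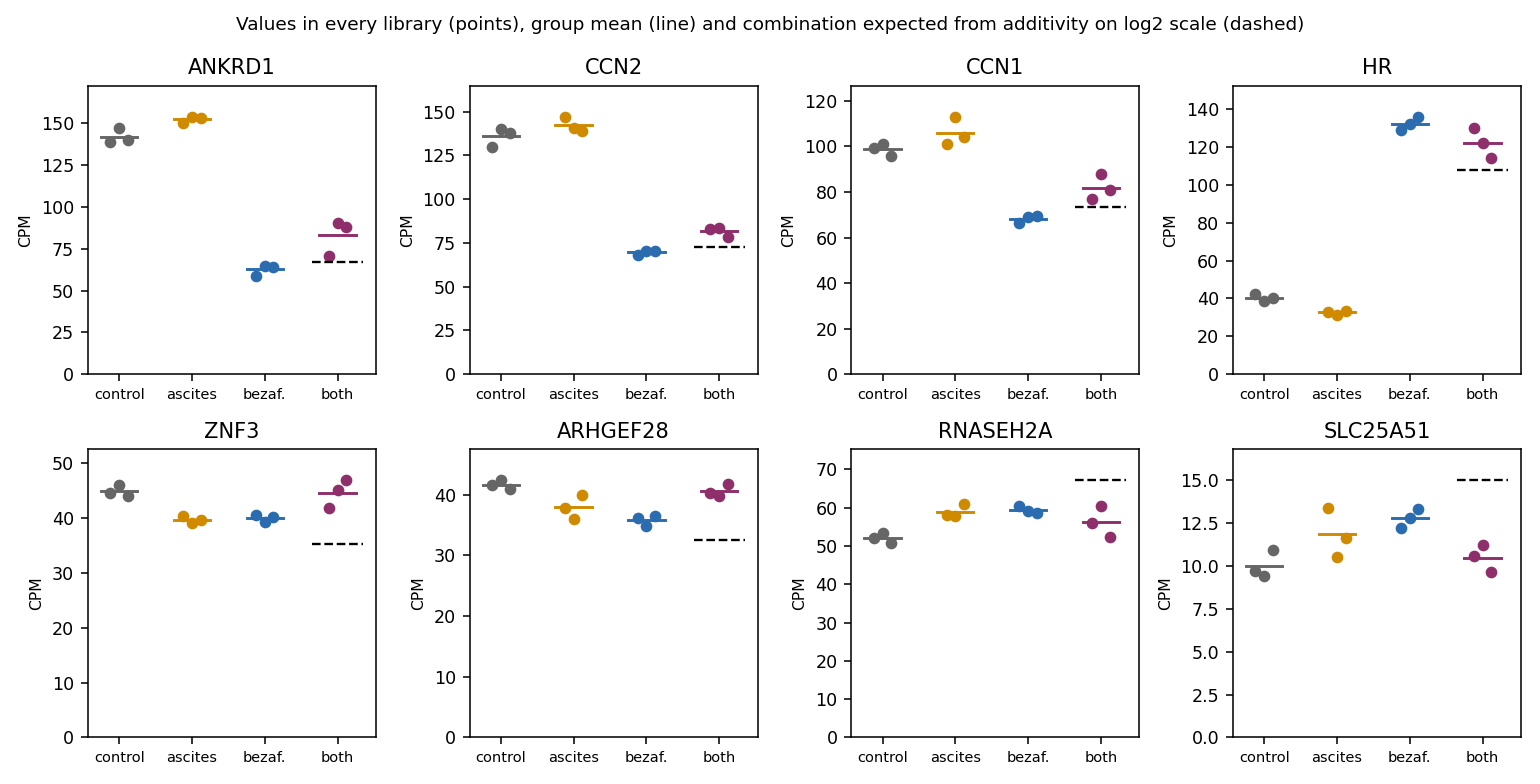
CPM (y axis, from 0) in every library by group for 8 genes: points are libraries, short lines are means over 3 replicates, and the dashed line is the level that additivity on the log2 scale predicts for the combination. In ANKRD1, CCN2, CCN1, HR, ZNF3 and ARHGEF28 all 3 combination libraries lie above the dashed line, and in RNASEH2A and SLC25A51 all 3 lie below it.

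Of 23 YAP and TEAD targets listed, 21 were tested. In the averaged effects bezafibrate lowered 14 and raised 2, beside 13.2% and 15% of all genes tested, and ascites raised 3, beside 0.0481%, which are ANKRD1, CCN1 and CCN2. In the interaction 0 of the 21 were called, 16 were positive beside 6294 of 12470 over all genes tested, and the median was 0.071 beside 0.001. An unadjusted p under 0.05 was found for 5 members, beside 3.57% of all genes tested, all positive: the 3 above, LATS2 and IGFBP3. The list was written with earlier results of these libraries known, so its direction is not independent evidence.

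LATS2, a kinase that restrains YAP, measured 44.7, 44.5 and 47.4 CPM in control, 38.9, 39.9 and 42.6 with ascites, 36.6, 37.3 and 37.9 with bezafibrate, and 36.9, 43.6 and 38.2 with both. Both single treatments lay below control in every library, and the combination overlapped each of them (interaction 0.25, SE 0.0864, unadjusted p 0.00739). IGFBP3, which binds insulin-like growth factors, was low in all groups and had an interaction of 0.77 (SE 0.361, unadjusted p 0.0388). AXL, a receptor kinase of the same list, was at 319, 319 and 314 CPM in control, 329.6, 327 and 336 with ascites, 272, 274 and 263 with bezafibrate, and 278, 287 and 279 with both. Its combination libraries lay above the drug alone by about as much as ascites lay above control, an interaction of 0.00 (SE 0.0426, interval -0.09 to 0.09). The growth factor gene TGFB2 had one of -0.04 (SE 0.0777, unadjusted p 0.619), and the tissue factor gene F3 one of -0.09 (SE 0.141, unadjusted p 0.511).

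HR, the gene of the hairless corepressor, came nearest to a departure among the 16 genes with the drug higher and ascites lower. It measured 42.1, 38.6 and 40 CPM in control, 32.9, 31.4 and 33.5 with ascites, 129, 132 and 136 with bezafibrate, and 129.9, 122 and 114 with both. The ascites libraries lay below control without overlap, while the combination overlapped the drug alone. The interaction of HR was 0.18 (SE 0.076, unadjusted p 0.0214). Its sign depends on the scale: adding on the log2 scale predicts 108 CPM, adding the changes in CPM predicts 125, and the combination measured 122 ± 8.1 CPM (SD, n = 3). The departure from the sum in CPM was -3.36 (SE 5.22).

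The scales could not be separated for most genes that both treatments moved. Among the 23, the combination lay closer to the log2 prediction in 12 genes. The median gap between both predictions was 2.9% of the level, and the median distance of the measurement was 3.09% from the log2 prediction and 3.52% from the sum of CPM changes. For 53 genes with an averaged drug effect of 2-fold or more and a mean of 10 CPM or more, the log2 prediction was the closer one in 19. Where the predictions lay more than 5% apart, it was the closer one in 2 of 6 of the genes called for both treatments, and in 3 of 17 of the genes with a 2-fold drug effect. FABP4 departed from the sum by 87.4 CPM (SE 29.8) and PLIN2 by -35.8 CPM (SE 10.4), beside log2 interactions of 0.09 and -0.01.

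The other genes called for both treatments had interactions whose intervals included 0. BCL2L1, which encodes the survival protein Bcl-xL, was raised by both and measured 328, 317 and 321 CPM in control, 338, 340.1 and 345 with ascites, 349.9, 360 and 358 with bezafibrate, and 388, 390.4 and 373 with both. The groups stood in that order without overlap, and the interaction of BCL2L1 was 0.03 (SE 0.0419, unadjusted p 0.522). GSDMD, the gene of a pore-forming protein, was also raised by both (interaction 0.02, SE 0.0813, unadjusted p 0.772). SLC5A3, a myo-inositol transporter lowered by both, had one of 0.12 (SE 0.0641, unadjusted p 0.0667). EPAS1, the gene of the hypoxia factor HIF-2alpha, had one of 0.04 (SE 0.0443, unadjusted p 0.4), and NDRG1, a stress-responsive gene, one of 0.21 (SE 0.13, unadjusted p 0.11).

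Bezafibrate changed 121 genes by 2-fold or more upwards and 39 downwards in the averaged effect. An unadjusted interaction p under 0.05 was found for 10 of the 121 (8.26%) and 3 of the 39 (7.69%), beside 3.57% of all genes tested. Besides ANKRD1, ACSL1, FABP1 and HR they included MAPRE3, LRRC31 and PCK1, a gluconeogenic enzyme (interaction 0.42, SE 0.206, unadjusted p 0.0463). MAPRE3, which encodes a protein of growing microtubule ends, measured 10.1, 9.04 and 8.73 CPM in control, 7.33, 7.1 and 7.81 with ascites, 19.7, 21.3 and 20.4 with bezafibrate, and 22.8, 22.6 and 19.3 with both. Ascites alone lay below control without overlap, and the combination overlapped the drug alone (interaction 0.41, SE 0.14, unadjusted p 0.00625). LRRC31, a leucine-rich repeat gene, measured 1.36, 0.588 and 1.98 CPM in control, 0.926, 1.17 and 0.606 with ascites, 8.8, 7.8 and 9.07 with bezafibrate, and 9.5, 11 and 11.4 with both, with all combination libraries above the drug alone and an interaction of 0.85 (SE 0.372, unadjusted p 0.0267). That of LRRC31 was 0.46 (unadjusted p 0.257) without control replicate 3 and 1.2 without control replicate 2, and its p stayed under 0.05 in 9 of 12 such fits. Many of these genes are low, and 52 of the 121 and 3 of the 39 had an interval inside 1.5-fold, beside 80.8% of all genes tested.

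The 445 genes with an unadjusted p under 0.05 were called for the drug about as often as any gene: 130 of them (29.2%) were, beside 28.3% of all genes tested. In 164 of them both single treatments lay below control and combination, and in 123 above both. That is 64.5%, beside 18.1% of all genes tested, and a contrast of this form selects such a shape. Where the genes were abundant the interactions were small: of 317 whose mean reached 10 CPM, 3 reached 0.5 in size and 0 reached 1. For 99 of the 445 the unadjusted p stayed under 0.05 in all 12 fits that left out 1 library.

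ZNF3, a zinc finger gene (chr7:100063837-100082577), had the lowest unadjusted p after RAB43 among genes that have a symbol and reach a mean of 1 CPM. It measured 44.6, 46 and 44 CPM in control, 40.4, 39 and 39.7 with ascites, 40.6, 39.2 and 40.1 with bezafibrate, and 41.8, 45.1 and 46.9 with both. Both single treatments lay below control, and the combination overlapped control. The drug changed ZNF3 by -0.17 without ascites (adjusted p 0.0273) and by 0.16 with it (adjusted p 0.0449), which made it the 1 gene called in opposite directions in both media. The interaction of ZNF3 was 0.33 (SE 0.0793, unadjusted p 0.000189, adjusted p 0.98), and from 0.29 to 0.38 with 1 library left out.

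ARHGEF28, which encodes a guanine nucleotide exchange factor, measured 41.6, 42.4 and 40.9 CPM in control, 37.8, 36 and 39.9 with ascites, 36.1, 34.9 and 36.5 with bezafibrate, and 40.2, 39.7 and 41.7 with both. Both single treatments lay below control, and 2 of the 3 combination libraries lay above every library of the single treatments. Its interaction was 0.31 (SE 0.0808, unadjusted p 0.000448). The SUMO ligase gene PIAS1 had an interaction of 0.26 (SE 0.0735, unadjusted p 0.00121). RPRD2, whose product binds RNA polymerase II, had one of 0.23 (SE 0.0671, unadjusted p 0.0015), and the elongation factor gene ELL one of 0.32 (SE 0.0965, unadjusted p 0.00217). In PIAS1, at 54.1, 52.4 and 54.3 CPM in control, 46.9, 48.6 and 50.7 with ascites, 47.3, 46.8 and 47.1 with bezafibrate, and 51.5, 49 and 53.1 with both, the single treatments again lay below control. The combination of PIAS1 overlapped both control and ascites.

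Of the genes with a negative interaction, RNASEH2A, the catalytic subunit of ribonuclease H2 (chr19:12806584-12813640), measured 52.2, 53.3 and 50.7 CPM in control, 58.2, 57.7 and 60.9 with ascites, 60.4, 59.1 and 58.5 with bezafibrate, and 56.1, 60.5 and 52.3 with both. Both single treatments lay above control, and the combination overlapped control and both single treatments. Adding predicts 67.2 CPM for RNASEH2A, and the combination measured 56.3 ± 4.11 CPM (SD, n = 3), an interaction of -0.26 (SE 0.0739, unadjusted p 0.00141). SLC25A51, which carries NAD into mitochondria, measured 9.68, 9.4 and 10.9 CPM in control, 13.4, 10.5 and 11.6 with ascites, 12.2, 12.8 and 13.3 with bezafibrate, and 10.6, 11.2 and 9.62 with both. The drug alone lay above every control and combination library, and the interaction of SLC25A51 was -0.52 (SE 0.152, unadjusted p 0.00145). DNPH1, a nucleotide hydrolase gene, had one of -0.48 (SE 0.137, unadjusted p 0.00147), and TAF8, a subunit of the general factor TFIID, one of -0.34 (SE 0.102, unadjusted p 0.0023). In none of these genes was the interaction called (adjusted p from 0.98 to 0.999 in edgeR), but without a filter on low counts DNPH1 was called (adjusted p 0.0189).

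Some of the lowest p-values belong to genes that share reads with another, so that the division of counts between them is uncertain. RAB43, a Rab GTPase gene, had an interaction of 0.93 (SE 0.194, unadjusted p 0.000145), with 16.8, 17 and 17.1 CPM in control, 10.3, 11.5 and 8.01 with ascites, 13.4, 18 and 17.4 with bezafibrate, and 14.7, 20.2 and 19.9 with both. Its ascites libraries stood below the other groups. The read-through gene ISY1-RAB43 covers the same exons, and summed with it the interaction was 0.09 (SE 0.113, unadjusted p 0.439). With ISY1 added as well it was 0.18 (SE 0.0773, unadjusted p 0.0243). HSPE1-MOB4, a read-through of a chaperonin gene and its neighbour, had one of -1.66 (SE 0.437, unadjusted p 0.000519), and summed with HSPE1 and MOB4 one of -0.01 (SE 0.0397, unadjusted p 0.847). The near-identical copies LIMS3 and LIMS4 had interactions of -5.08 and 4.46, and their sum one of 0.19 (SE 0.395, unadjusted p 0.629). FAM156A and FAM156B had 0.82 and -2.36, and their sum -0.03 (SE 0.128, unadjusted p 0.839). GCOM1, a transcript unit that overlaps MYZAP, had 0.52 (SE 0.196, unadjusted p 0.0146), and their sum 0.22 (SE 0.103, unadjusted p 0.0392).

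**Figure D4:**
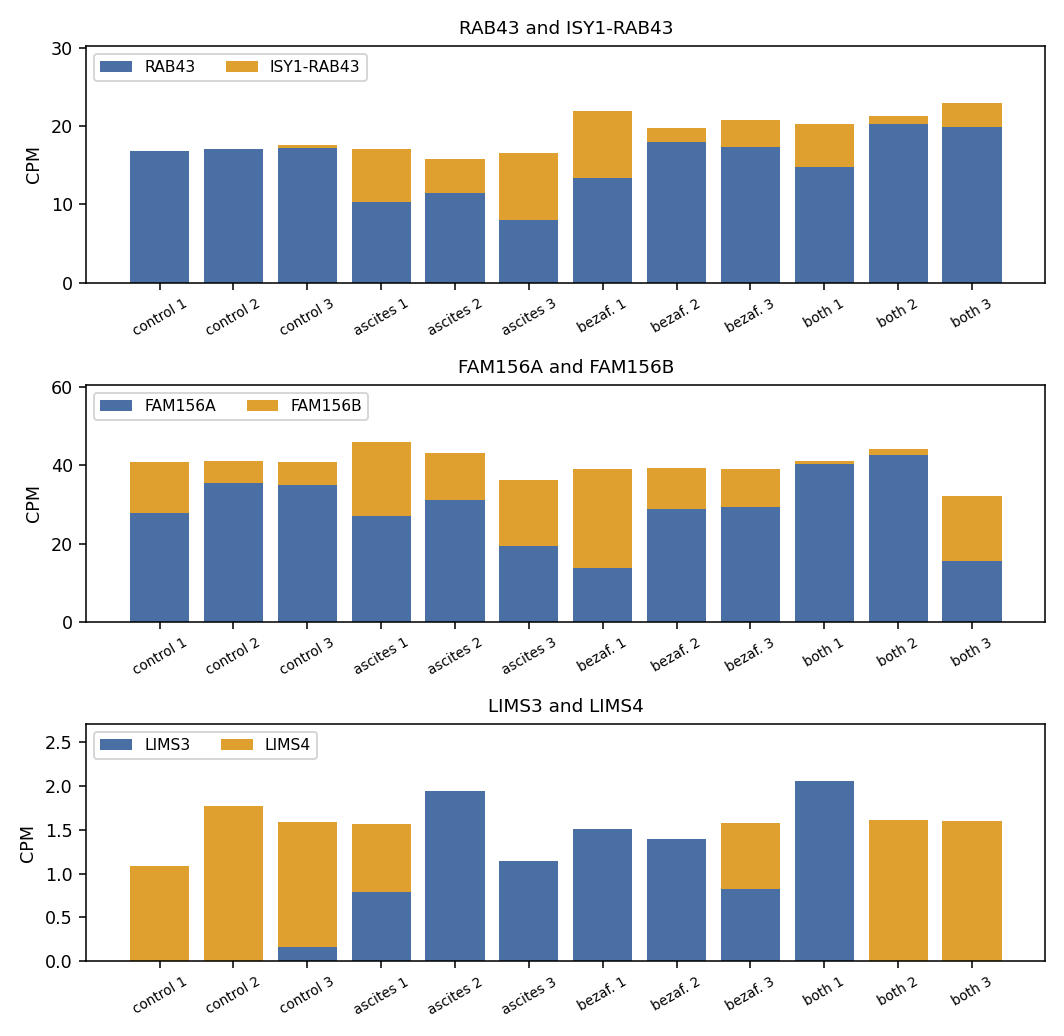
CPM (y axis, from 0) in each of the 12 libraries for 3 pairs of genes that share reads; bar segments are the members of a pair and the bar height is their sum. The division between members changes from library to library, including between replicates, while the sums vary less, such as 15.8 to 22.9 CPM for RAB43 with ISY1-RAB43.

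The remaining lists had 0 members called in the interaction with edgeR and few at an unadjusted p under 0.05, beside 3.57% of all genes tested. Of 25 proliferation genes, 10 were lowered by the drug and 1 was raised, beside 13.2% and 15% of all genes tested. Their median interaction was 0.014. All 25 had an interval inside 1.5-fold, beside 80.8% of all genes tested, but their means ran from 19.4 (CCNE1) to 642 CPM (MCM4). At such levels 98.7% (10 to 100 CPM) and 100% (100 CPM or more) of all genes lay inside. Of 9 LXR targets tested, which govern cholesterol export, bezafibrate raised 7, beside 15% of all genes tested, and MYLIP, a ligase for the LDL receptor, had an unadjusted p under 0.05 (interaction -0.27, SE 0.134, unadjusted p 0.0498). Of 22 hypoxia and glycolysis genes tested, these were the hexokinase gene HK2 (interaction 0.16, SE 0.0588, unadjusted p 0.0104) and ANKRD37 (interaction -1.01, SE 0.495, unadjusted p 0.0449). Of 20 ATF4 stress response genes it was CTH, which makes cysteine from cystathionine (interaction 0.52, SE 0.208, unadjusted p 0.0166). In the lists of interferon (15 tested), NF-kB (11), immediate early and MAPK response (22), TGF-beta (14) and NRF2 targets (20), 0 members had an unadjusted p under 0.05, and median interactions lay between -0.009 and 0.032.

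Among fits that left out 1 library, the number of genes near a departure moved most without combination replicate 1. Without it, 820 genes had an unadjusted p under 0.05 and 3 were called: ANKRD1, RAB43 and LIMS3 (adjusted p 0.000348, 0.000348 and 1.67e-06 in edgeR). Leaving out any other library gave 366 to 521 genes at an unadjusted p under 0.05 and 0 calls. The quality weights that limma gave to the combination libraries were 0.733, 1.27 and 0.445, so replicate 3 was weighted lowest.

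**Figure D5:**
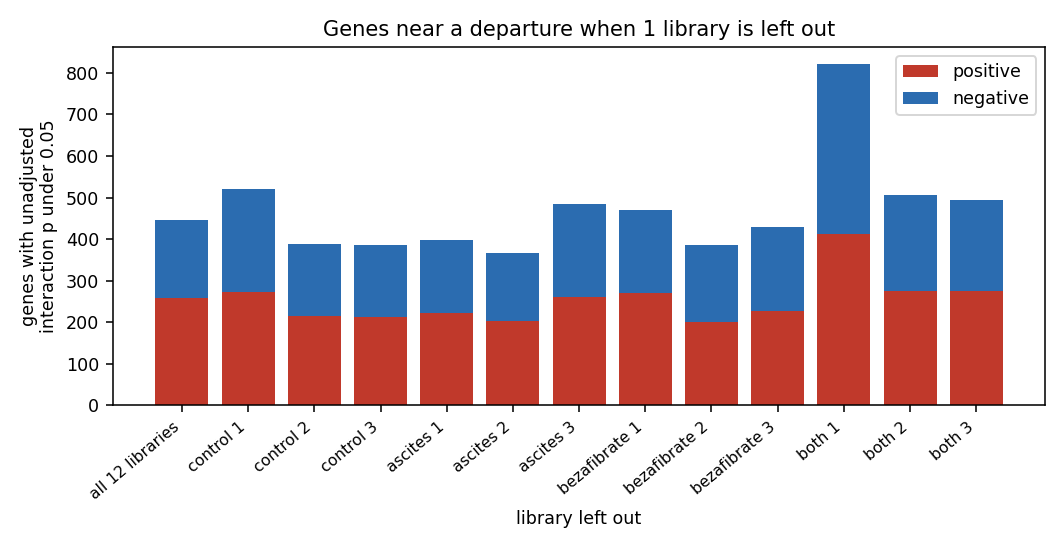
Number of genes with an unadjusted interaction p under 0.05 (y axis, from 0) with all 12 libraries and with each library left out (x axis); red segments count positive and blue segments negative interactions. The count was 445 with all libraries, 820 without combination replicate 1 and at most 521 without any other.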

How the data were processed

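RNA-seq was analysed for 12 libraries in 4 groups of 3, with groups and replicate numbers from the labels. The authors deposited whole-number counts per gene for 19677 genes. The submitters' processing notes name Trimmomatic 0.39, STAR 2.7.9a, RSEM 1.3.3, DESeq2 1.28.1 and build GRCh38; the annotation, the strandedness and whether the counts are rounded estimates are not given in the sources used here. Where genes share reads, the division between them follows steps that were not repeated, and such genes were also summed.

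Genes were kept by filterByExpr (minimum count 10, minimum total 15), which left 12470 genes with at least 99.96% of the counts. Counts were scaled by TMM and fitted in edgeR 4.0.16 (R 4.3.3) with 1 mean per group, robust quasi-likelihood and 8 residual degrees of freedom, and p-values were adjusted by Benjamini-Hochberg over all genes tested. SEs come from the fitted weights and the quasi-likelihood variance of each gene, while p-values come from the F test, so an interval and its p can disagree. For LIMS3 the interval ran from -12.18 to 2.02 although the unadjusted p was 0.0367. The script was tested on simulated data. Total counts per library (11831093 to 18762759) leave the spread between replicates as the limit for abundant genes. Replicate pairs differed by more than counting noise (chi-square per degree of freedom 1.44 to 4.45).

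Genes named follow a rule: the 8 lowest p of each sign in the interaction with a symbol and a mean of at least 1 CPM; the 4 largest of each sign among those with an unadjusted p under 0.05 and at least 10 CPM; up to 24 genes called for both treatments; the 6 largest drug effects in each direction at 5 CPM or more; genes called when 1 library is left out; and a set known from earlier results. List members outside this rule (such as ACSL1, FABP1, ACAT2, LATS2, AXL and HK2), PCK1 and the partners of genes that share reads were named after their values were seen. The members and lists were chosen with earlier results of these data known. Alternatives were other scalings and filters, DESeq2 1.42.0, limma-voom (limma 3.58.1), no robust estimation, a replicate block, each library left out, a threshold of 0.1 and additivity in CPM; sample weights and sums of genes that share reads were added after seeing the data. Promoters and gene positions are from RefSeq (GRCh38.p14), matched by symbol. Some named genes are not reported here.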

Additional observations from a re-analysis of the deposited data

How the results depend on the processing

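The count of genes called in the interaction, 0 as reported, was 1 with DESeq2, 1 without robust estimation, 1 with the replicate block, 2 with sample weights, 36 of 16403 without a filter on low counts, and 0 to 3 with 1 library left out (3 without combination replicate 1). RAB43 was the gene under DESeq2 and the block, ISY1-RAB43 the one without robust estimation, and FAM156B and LIMS3 those with sample weights, and all share reads with another gene. Of the 36, 29 had passed the filter, 8 were read-through genes, 16 had no symbol and 12 had a symbol without a hyphen. These 12 include RAB43, FAM156A, FAM156B, LIMS3 and LIMS4, which share reads with another gene. ANKRD1 (adjusted p 0.00254) and DNPH1 (adjusted p 0.0189) are also among them. Genes at an unadjusted p under 0.05 numbered 183 with DESeq2, 679 without a filter, and 366 to 820 with 1 library left out. Calls for ascites numbered 113 without a filter, 56 at an adjusted p under 0.1, and 21 (without ascites replicate 1) to 118 (without combination replicate 3); calls for bezafibrate 3133 to 3620 with 1 library left out, 2845 with DESeq2, 3699 without a filter and 4235 at an adjusted p under 0.1. Intervals inside 1.5-fold numbered 9800 to 9974 with 1 library left out. Upper-quartile scaling moved the share of drug calls that were higher from 53.2% to 43.3%.

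The slope on the drug effect was 0.003 without a filter, 0.02 with DESeq2, 0.013 with limma-voom, 0.012 without robust estimation, 0.023 with the replicate block, 0.027 with sample weights, and 0.003 (without control replicate 1) to 0.083 (without combination replicate 1). The slope on the ascites effect was -1.086 without a filter, -1.883 without robust estimation, -1.878 with sample weights, and -0.594 (without ascites replicate 1) to 1.302 (without combination replicate 1). The cause of these changes was not tested. HR turned to -3.36 CPM against the sum in CPM.

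The replicate numbers did not pair the libraries: same-numbered libraries of different groups correlated from -0.125 to 0.0896 after group means were removed, and 3 of 12 correlated best with their own number. Under the block 444 genes had an unadjusted p under 0.05. The named genes with an unadjusted p under 0.05 as reported kept their sign in all 613 alternative values, and 28 of these had a p of 0.05 or more. Their choice by a low p in these same libraries largely fixes the sign. The 613 values leave out additivity in CPM, where HR turned negative. They also leave out the sums of genes that share reads, where LIMS3 turned from -5.08 to 0.19 with LIMS4, and RAB43 came to 0.09 (p 0.439). Genes below 1 CPM had the widest intervals.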
